A study of Mus musculus with 16 samples.

Results

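Cytosolic ribosomal protein genes encode the proteins that, with ribosomal RNA, build the small (40S) and large (60S) subunits of the ribosome. They were taken as every row of the expression table whose symbol is Rpl or Rps with a number and a short suffix, or Rplp0, Rplp1, Rplp2 or Rpsa, without the Rps6k kinases and without pseudogene symbols. The rule gave 90 of the 25105 rows. Of these, 43 named large subunit proteins, 31 named small subunit proteins, 3 named the acidic stalk, 12 named close paralogs or retrogene copies, and 1, Rps19bp1, met the symbol rule although it encodes a binding partner of S19 and not a ribosomal protein. The test used here covered 86 of the 90; Rpl10l, Rpl39, Rpl39l and Rpl3l stayed below its minimum level. RNA-seq was run on 16 libraries of dispersed pancreatic islet cells from adult Grp78 flox/flox mice, and the same 4 islet preparations, named F1, M1, M2 and F2, gave the 4 libraries of every group. Cells were transduced with an adenovirus for LacZ (Ad-LacZ, the control) or for Cre recombinase (Ad-Cre, the knockdown of GRP78), with vehicle (DMSO) or with JNK-IN-8, an inhibitor of all JNK kinases (+ JNK Inh). All 16 cultures carried both floxed alleles, had an adenovirus, and were kept in 15 mM glucose for 72 hours.

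Ribosomal protein mRNAs are among the most abundant in a cell and are made in balanced amounts, since each ribosome holds about one copy of most of the proteins. Many of them start with a run of pyrimidines, the 5′ terminal oligopyrimidine (TOP) tract, through which the mTORC1 kinase sets their translation. Unassembled L5 and L11 can bind MDM2 and so hold p53, and loading of the secretory β cell with unfolded protein is answered by phosphorylation of eIF2α, which lowers translation.

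The starts of the 5 genes with the largest and of 4 with the smallest changes described below are shown, with that of Rps6, the substrate of S6 kinase, since the TOP tract is read from the first bases of the mRNA. Each line gives the 15 bases before and the first 15 bases of a RefSeq transcript (GRCm38.p6), and capitals mark the longest run of C and T among those that reach within 10 bases of the start, or the first of equal ones.
Rpl13a, chr7:45128731-45128760, minus strand: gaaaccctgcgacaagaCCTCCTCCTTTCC
Rps27, chr3:90213634-90213663, minus strand: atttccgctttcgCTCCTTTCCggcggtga
Rplp2, chr7:141447636-141447665, plus strand: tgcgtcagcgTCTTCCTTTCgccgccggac
Rpl12, chr2:32961697-32961726, plus strand: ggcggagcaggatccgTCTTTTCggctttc
Rps27rt, chr9:114982725-114982754, minus strand: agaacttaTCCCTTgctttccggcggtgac
Rps6, chr4:86857353-86857382, minus strand: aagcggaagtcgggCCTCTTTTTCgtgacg
Rpl36al, chr12:69184053-69184082, minus strand: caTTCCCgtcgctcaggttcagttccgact
Rpl7l1, chr17:46782642-46782671, minus strand: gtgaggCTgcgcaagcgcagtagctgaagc
Rpl5, chr5:107900513-107900542, plus strand: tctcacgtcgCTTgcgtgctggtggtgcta
Rpl36a, chrX:134585639-134585668, plus strand: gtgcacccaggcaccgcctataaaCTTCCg
The first 6 belong to genes that rose with Ad-Cre, and the last 4 to the genes with the smallest changes that have an entry. Of the 90 members, 68 had an entry, and 15 of these (22.1%) began with C followed by 4 more pyrimidines, against 3.01% of the 27025 genes in the table. Between 250 bases before and 50 after the start, CCGGAA or its reverse complement stood in 52.9% of members and 16.7% of all genes, ATGGCG in 30.9% and 10.2%, and TATAAA in 11.8% and 15.7%. RefSeq starts are not measured in these cells, and a start a few bases off changes the TOP call: the listed start of Rpl13a has no C in the first position, while a run of 14 pyrimidines, the last past the end of the window, begins 2 bases later.

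Before the comparisons, the target of the knockdown was read in each group. Hspa5, which encodes GRP78, was 438 ± 49.0 RPKM (reads per kilobase of gene, scaled to the mapped reads of the library; mean ± SD, n = 4) with Ad-LacZ and 1264 ± 231 with Ad-Cre, and 409.8 ± 58.4 and 1415 ± 189 with the inhibitor. The row covers the whole gene, so it does not show whether the floxed exons were lost, and it goes against the label; the groups are therefore called the libraries labelled Ad-Cre and Ad-LacZ. The study reports that qPCR on parallel aliquots of these samples showed the knockdown, with rises of the chaperone genes Grp94 and Calr. It also reports a partial loss of GRP78 protein by immunoblot in such cultures. These assays were not analysed here. Both viruses carry the general CMV promoter, which does not hold Cre to one islet cell type, and each preparation carries 2 animal numbers. β, α and δ cell markers were high in all 16 libraries, and the 4 acinar markers summed to at most 0.0945 RPKM. Summed β markers ran from 51227 to 83746 RPKM with Ad-LacZ and from 33341 to 84105 with Ad-Cre, and with the inhibitor from 35159 to 60151 and from 33139 to 64182, most of it insulin mRNA. The transcription factor Mafa ran from 285 to 508 to 52.7 to 225, the glucose transporter Slc2a2 from 73.2 to 130.2 to 18.3 to 68.9 and the hormone Ucn3 from 173 to 348 to 21.6 to 129, without overlap. The other β markers, Ins1, Ins2, Iapp, Pdx1 and Nkx6-1, overlapped between Ad-LacZ and Ad-Cre. Pdx1, for example, ran from 73.9 to 109 and from 26.1 to 76.5. Of the 8 β markers, 1 fell with Ad-Cre (5 with the preparations paired as a replicate block), and with the inhibitor 3 fell (5 with the block, where 1 rose). Of all 11590 genes tested with Ad-Cre, 1041 were called higher and 1196 lower (1962 and 2040 with the block). With the inhibitor these were 1359 and 1307 of 11598 genes (1466 and 1416 with the block). Of the 6 macrophage markers, 2 rose with Ad-Cre (4 with the block) and none with the inhibitor present. Their sums ran from 68.5 to 76.9 and from 67.9 to 199.7, and with the inhibitor from 134.1 to 308.4 in Ad-LacZ and from 171.8 to 289.3 in Ad-Cre. Summed duct markers ran from 94.0 to 223 in Ad-LacZ and from 59.4 to 297 in Ad-Cre. With the inhibitor they ran from 333 to 847 and from 157 to 276, without overlap. Summed fibroblast markers ran from 17.4 to 88.6 in Ad-LacZ and from 15.8 to 628 in Ad-Cre. With the inhibitor they ran from 36.6 to 462 and from 16.6 to 114. There, the 1 duct marker tested fell, also with the block. Of 4 fibroblast markers tested there, 0 fell without and 4 with the block. The 4 α markers had a median log2 fold change of 0.47 there, all above 0, and 0 rose without and 1 with the block. The 2 δ markers had 0.74, both above 0, and 0 rose without and 1 with the block. Without the inhibitor these medians were 0.07 and 0.04, and 0 rose or fell. In bulk RNA, fewer cells of one type and less RNA per cell cannot be told apart, and the part of these markers in the results was not tested. Depth, read from the steps of low values, was 7.71 M (Ad-Cre + JNK Inh F2, the only library whose column name has another prefix and ending) to 25.4 M (mega) reads.

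Another 3 libraries stood apart in the balance among the ribosomal protein genes themselves: Ad-LacZ F2, Ad-LacZ + JNK Inh F1 and Ad-Cre + JNK Inh M2. Rpl38, a large subunit protein, was 1.80 to 3.01 times the level of Rps14, a small subunit protein, in these 3 libraries and 0.468 to 0.736 times in the other 13. Rpl23 was 3.60 to 5.23 times Rpl13a in the 3 and 0.575 to 1.35 times in the 13. Rps14 read 120.2, 101, 103 and 53.9 RPKM in F1, M1, M2 and F2 of Ad-LacZ, 48.8, 92.1, 112 and 111 in Ad-LacZ + JNK Inh and 239.7, 191, 63.8 and 220.1 in Ad-Cre + JNK Inh, and each time the library that stood apart was the lowest. The same 3 libraries had the lowest slopes of all genes' deviations on GC content, -0.14, -0.20 and -0.30 on the log2 scale per 10 points of GC, against -0.06 to 0.24 in the others. Each of the 3 also had the highest sum of its group for the 2 mitochondrial-genome transcripts listed. The sums were 1609 RPKM in Ad-LacZ F2, 2390 in Ad-LacZ + JNK Inh F1 and 4479 in Ad-Cre + JNK Inh M2. The other libraries of these groups read 1108 to 1381, 1042 to 1592 and 1021 to 2487. The 3 libraries come from 3 preparations and 3 groups, and no label sets them apart. Results are given with and without them, a choice made after seeing the data.

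**Figure D1:**
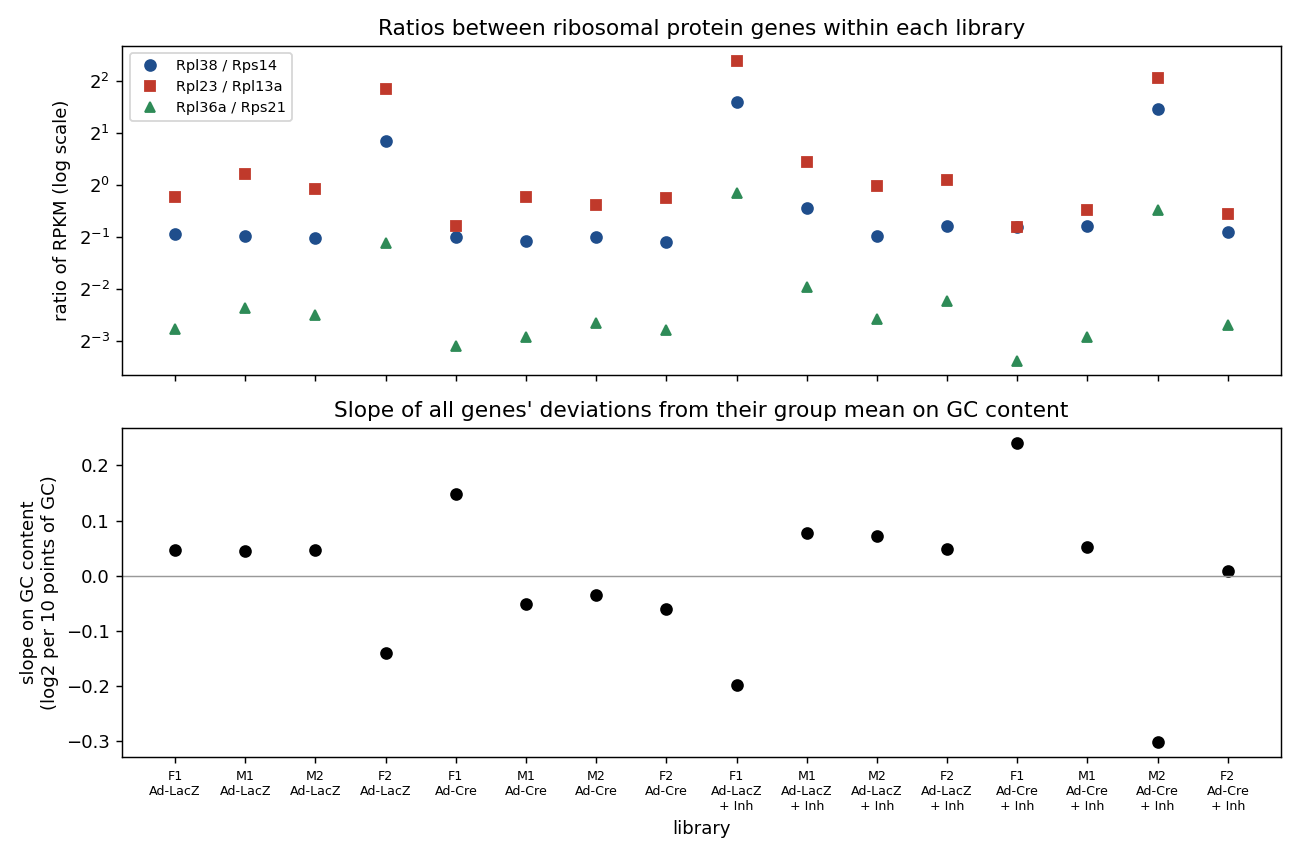
Upper panel, ratio of RPKM between pairs of ribosomal protein genes in each of the 16 libraries (log axis); lower panel, slope on GC content, in log2 per 10 points, of all genes' deviations from their group mean. Ad-LacZ F2, Ad-LacZ + JNK Inh F1 and Ad-Cre + JNK Inh M2 have the highest ratios, with Rpl38 at 1.80 to 3.01 times Rps14, and the lowest slopes.

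Levels differed widely between members. The highest mean RPKM over the 16 libraries were those of Rplp1 (705), Rpl8 (522), Rpl41 (507) and Rps27rt (469.8), and the lowest of those tested were Rps13 (2.04) and Rpl30 (2.47). The table also lists 31 pseudogene rows of 12 of these genes, and for 10 of the 12 the pseudogene rows summed higher than the gene in Ad-LacZ. Rps13, a small subunit protein, read 1.04 ± 0.261 RPKM in Ad-LacZ while its row Rps13-ps4 read 151 ± 25.5. Rpl13, Rpl17, Rpl31 and Rpl34 stood 23.0 to 94.0 times below their pseudogene rows in the same group. Reads of near-identical copies cannot be told apart by such a table, so levels are compared within a gene and not between genes. Rpl39 read 0.0687 to 0.361 RPKM in the 16 libraries, and its paralog Rpl39l and the muscle-type Rpl3l were at most 0.253 and 0.788; Rpl10l was listed at 0 throughout.

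With Ad-Cre, the summed level of the 90 rows was higher. It was 6335, 6016, 5855 and 5901 RPKM in F1, M1, M2 and F2 of Ad-LacZ and 11066, 7913, 9707 and 9214 in Ad-Cre. With the inhibitor it was 6423, 6303, 6091 and 6311 in Ad-LacZ and 13425, 10869, 9664 and 12348 in Ad-Cre. Every library labelled Ad-Cre lay above every library labelled Ad-LacZ. As a share of all RPKM this was 1.95 ± 0.0452% in Ad-LacZ, 2.90 ± 0.316% in Ad-Cre, 2.10 ± 0.0711% in Ad-LacZ + JNK Inh and 3.40 ± 0.280% in Ad-Cre + JNK Inh (SD, n = 4). The pseudogene rows went in the same direction, from 1685 to 1910 RPKM in Ad-LacZ to 2257 to 3290 in Ad-Cre, and from 1723 to 1851 to 2860 to 3768 with the inhibitor.

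**Figure D2:**
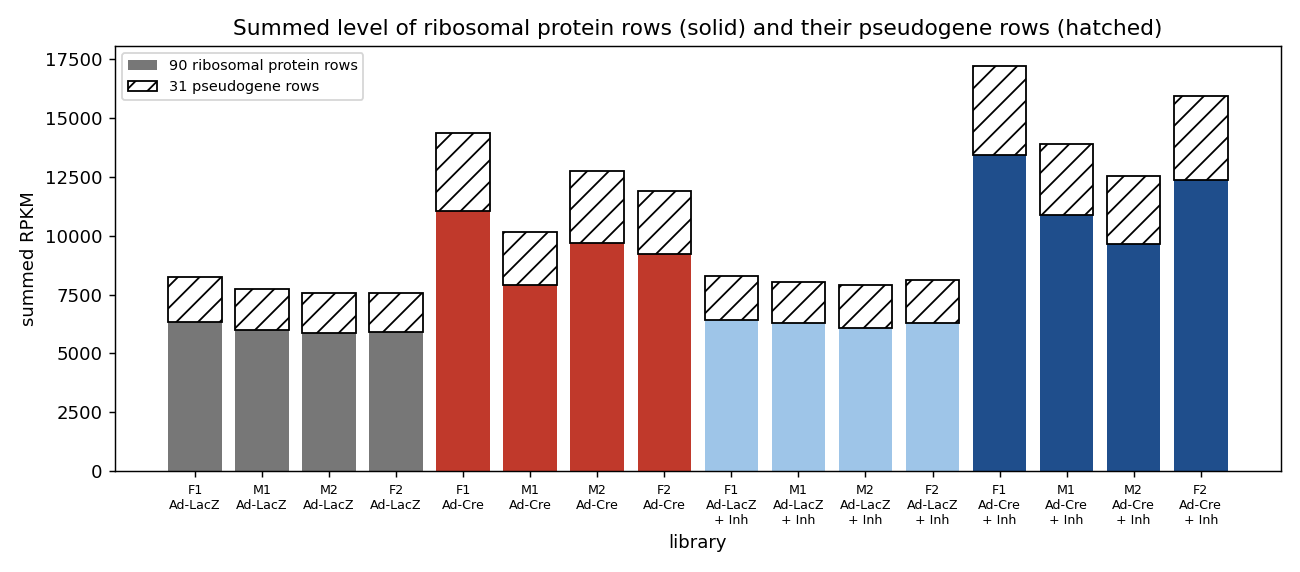
Summed RPKM of the 90 ribosomal protein rows (solid) and of their 31 pseudogene rows (hatched) in each library. The solid bars of the 8 libraries labelled Ad-LacZ lie between 5855 and 6423 and those of the 8 labelled Ad-Cre between 7913 and 13425.

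In the comparison of Ad-Cre with Ad-LacZ, which asks what the virus for Cre changed without inhibitor, 59 of 86 ribosomal protein genes were higher with Ad-Cre and none was lower (limma on log2(RPKM + 1), Benjamini-Hochberg adjusted p under 0.05 over 11590 genes). Of all genes tested, 8.98% were called higher. At an unadjusted p under 0.05, 74 members passed, again none of them lower, against 16.2% of all genes higher. With the preparations paired as a replicate block, 76 members were called, all higher, against 16.9% of all genes. The median log2 fold change of the members was 0.62, or 1.53-fold, and their range was -0.17 to 1.16, while the median of all genes was 0.01. After scaling between libraries, the 4 Ad-Cre libraries of 64 members all lay above the 4 Ad-LacZ libraries, which held for 12.7% of all genes tested. With the study's fold change of 1.5 and a p under 0.05, taken here as unadjusted, 46 members were higher, against 5.32% of all genes. The median over members was 0.84, 0.45, 0.74 and 0.47 in preparations F1, M1, M2 and F2, and in Ad-Cre the M1 library was the lowest of its group for 81 of 86 members. Within a group, the median coefficient of variation of the members was 14.4% in Ad-LacZ, 16.7% in Ad-Cre, 16.7% in Ad-LacZ + JNK Inh and 19.4% in Ad-Cre + JNK Inh.

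The 3 stalk proteins, which draw elongation factors to the ribosome, all rose. Rplp0 was 295, 312, 289.9 and 209 RPKM in Ad-LacZ (F1, M1, M2, F2) and 584, 446, 593 and 543 in Ad-Cre. Rplp1 was 505, 440.1, 409 and 391 and 947, 642, 920.1 and 825, and Rplp2 38.0, 32.3, 27.6 and 18.0 and 77.8, 43.5, 61.4 and 52.3. The groups did not overlap for any of the 3. Their log2 fold changes were 0.99 ± 0.17, 0.94 ± 0.17 and 1.03 ± 0.26 (SE), with adjusted p of 0.00664, 0.00925 and 0.0265.

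Among the 42 large subunit genes tested, 26 rose and the median log2 fold change was 0.56. The largest rise of all members was that of Rpl13a, whose protein also takes part in translational silencing after interferon γ. It read 62.4, 46.4, 55.6 and 24.3 RPKM in Ad-LacZ and 123, 78.5, 109 and 93.4 in Ad-Cre, a log2 fold change of 1.16 ± 0.28 (adjusted p = 0.0237). Its lowest control value came from Ad-LacZ F2, one of the 3 libraries that stood apart. Rpl12, part of the base of the stalk, rose from 5.84 ± 0.146 to 13.2 ± 4.14 RPKM (1.01 ± 0.21, adjusted p = 0.0143). Rpl3, close to the peptidyl transferase centre, rose by 0.55, and Rpl10a, which forms the stalk near the exit site, by 0.75. Rpl10, which joins the 60S subunit late, read 77.1 ± 7.10 and 100.5 ± 14.6 RPKM and passed with the block alone (0.39 ± 0.15, adjusted p = 0.105; 0.0433 with the block). Rpl23, another protein that can bind MDM2, was 53.6, 54.0, 52.9 and 87.3 against 71.4, 66.7, 83.2 and 78.8. Rpl38, known for its part in translating Hox mRNAs, was 62.9, 51.7, 50.7 and 96.8 against 111, 67.9, 83.5 and 82.2. For both, Ad-LacZ F2 reached above Ad-Cre libraries and neither passed the test.

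L5 and L11, which form a particle with 5S rRNA and bind MDM2, stood low in the order. Rpl5 was 32.8, 36.6, 32.7 and 49.3 RPKM in Ad-LacZ and 45.9, 33.8, 46.8 and 44.9 in Ad-Cre, and the groups overlapped (0.20 ± 0.16, adjusted p = 0.431). Rpl11 was 11.1, 11.9, 10.6 and 14.0 and 17.9, 13.7, 15.9 and 17.2, a rise of 0.43 ± 0.13 that passed (adjusted p = 0.0497).

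Among the 31 small subunit genes, 25 rose and the median was 0.72. Rps27 went from 8.02, 5.68, 4.84 and 4.59 to 17.5, 9.25, 13.1 and 11.6 RPKM (1.04 ± 0.22, adjusted p = 0.0162), and its retrogene row Rps27rt, which held far more reads, from 359, 342, 278 and 234 to 846, 457, 585 and 557 (1.01 ± 0.24, adjusted p = 0.0218). Reads of this pair cannot be told apart with certainty. Rps19, the protein most often mutated in Diamond-Blackfan anemia, rose from 7.52 ± 2.04 to 14.7 ± 2.37 RPKM (0.92 ± 0.18, adjusted p = 0.0124). Rps25, needed for initiation at viral internal ribosome entry sites, rose from 19.0 ± 0.885 to 31.1 ± 5.75 (0.68 ± 0.14, adjusted p = 0.0154). Rps6, the substrate of S6 kinase, was 127, 116, 121 and 159.7 in Ad-LacZ and 203, 168, 179.9 and 188 in Ad-Cre (0.52 ± 0.14, adjusted p = 0.0373). Rps27a, made as a fusion with ubiquitin, rose by 0.74 (adjusted p = 0.0396). Rps24 and Rps26, which are also mutated in Diamond-Blackfan anemia, and Rpsa, once named for binding laminin, gave 0.44, 0.54 and 0.50 and passed with the block alone (adjusted p = 0.0625, 0.0690 and 0.0615; 0.0246, 0.0490 and 0.0260 with the block).

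**Figure D3:**
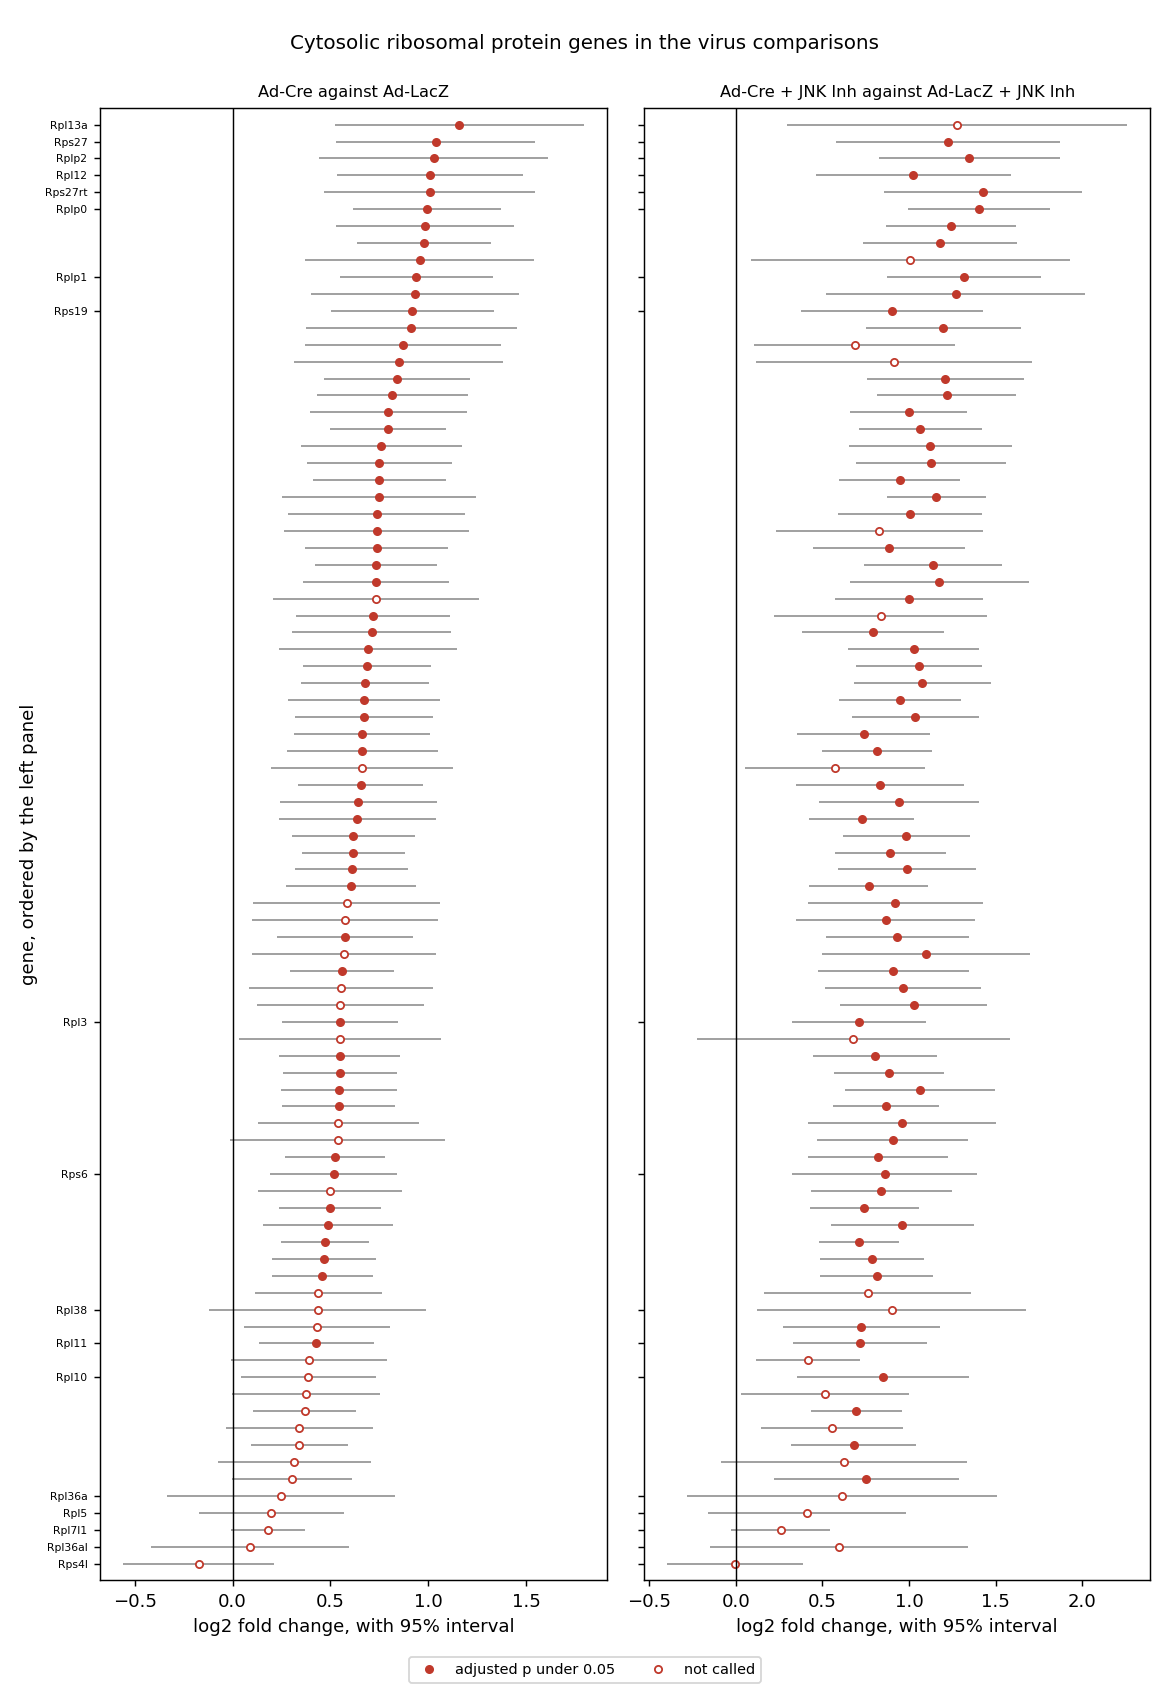
Log2 fold change and 95% interval of each of the 86 genes tested, for Ad-Cre against Ad-LacZ (left) and for the same comparison with the inhibitor (right), in the order of the left panel, with names for the genes the text turns on; filled points passed an adjusted p under 0.05. Left of 0 lies only Rps4l, in both panels.

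The smallest changes were found in paralogs and a few large subunit genes. Rps4l, a copy of the X-linked small subunit gene Rps4x, read 62.3, 68.3, 70.2 and 75.2 RPKM in Ad-LacZ and 76.7, 63.7, 50.6 and 53.3 in Ad-Cre (-0.17 ± 0.17, adjusted p = 0.510), while Rps4x went from 30.3, 23.2, 26.5 and 19.8 to 46.4, 33.1, 47.8 and 39.3 (0.74 ± 0.16, adjusted p = 0.0165). Rpl36al, Rpl7l1 and Rpl36a gave 0.09, 0.18 and 0.25, and none passed. Rpl7l1 was 28.8 to 32.9 and 34.5 to 35.1 RPKM, so its groups did not overlap although the difference was small. Rps27l, a p53 target that is close in sequence to Rps27, was 64.7, 54.4, 77.4 and 93.5 and 85.1, 72.4, 107 and 96.8 (0.34 ± 0.17, adjusted p = 0.179; 0.0495 with the block). Rpl22 and Rpl22l1, whose protein products control each other's expression, rose by 0.53 and 0.67, and Rpl7 by 0.50. Rps19bp1, which is no ribosomal protein, rose by 0.47.

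Within a library, the log2 ratio of parent to paralog was compared by an exact two-sided permutation test of 4 against 4 libraries, whose smallest p is 0.0286, in 10 comparisons (5 pairs, with and without inhibitor). Rps4x/Rps4l was higher by 0.94 with Ad-Cre (-0.55 ± 0.37 against -1.48 ± 0.37, SD, n = 4; higher in 4 of 4 preparations) and by 0.92 with the inhibitor, each with an exact p = 0.0286 and an adjusted p = 0.0952. Rpl7/Rpl7l1 was higher by 0.32 (exact p = 0.0286, adjusted p = 0.0952) and by 0.48 (exact p = 0.0571, adjusted p = 0.143), in 4 of 4 preparations each time. Rps27/Rps27l differed by 0.82 and 0.80 (exact p = 0.0857 and 0.143). Rpl36a/Rpl36al and Rpl22/Rpl22l1 gave exact p between 0.400 and 0.886. No ratio passed after adjustment over the 10.

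The length, GC content and level of a gene moved with the same comparison. Among other genes, the median log2 fold change was 0.25 for transcripts of up to 500 bases and -0.07 above 3000 bases; it was -0.32 below 40% GC and 0.16 above 60% GC. Members are short, with 71 of 86 at up to 1000 bases, and the 17 members of up to 500 bases had a median of 0.75. Other genes above 200 RPKM (134 of them) had a median of 0.36, against 0.68 for the 10 members at that level. With the trends on GC content and length removed from each library, 38 of 86 members passed, none lower, with a median of 0.49, against 6.67% of all genes; with the block as well, 60 passed, against 14.3%. Without the library that stood apart, Ad-LacZ F2, 47 passed, with a median of 0.64, against 6.26% of all genes. With both F2 libraries left out, 5 passed at a median of 0.66, and without F1, M1 or M2, 23, 21 and 10 passed; 3 libraries a group remained, and all genes called higher fell to between 1.84% and 4.92%.

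**Figure D4:**
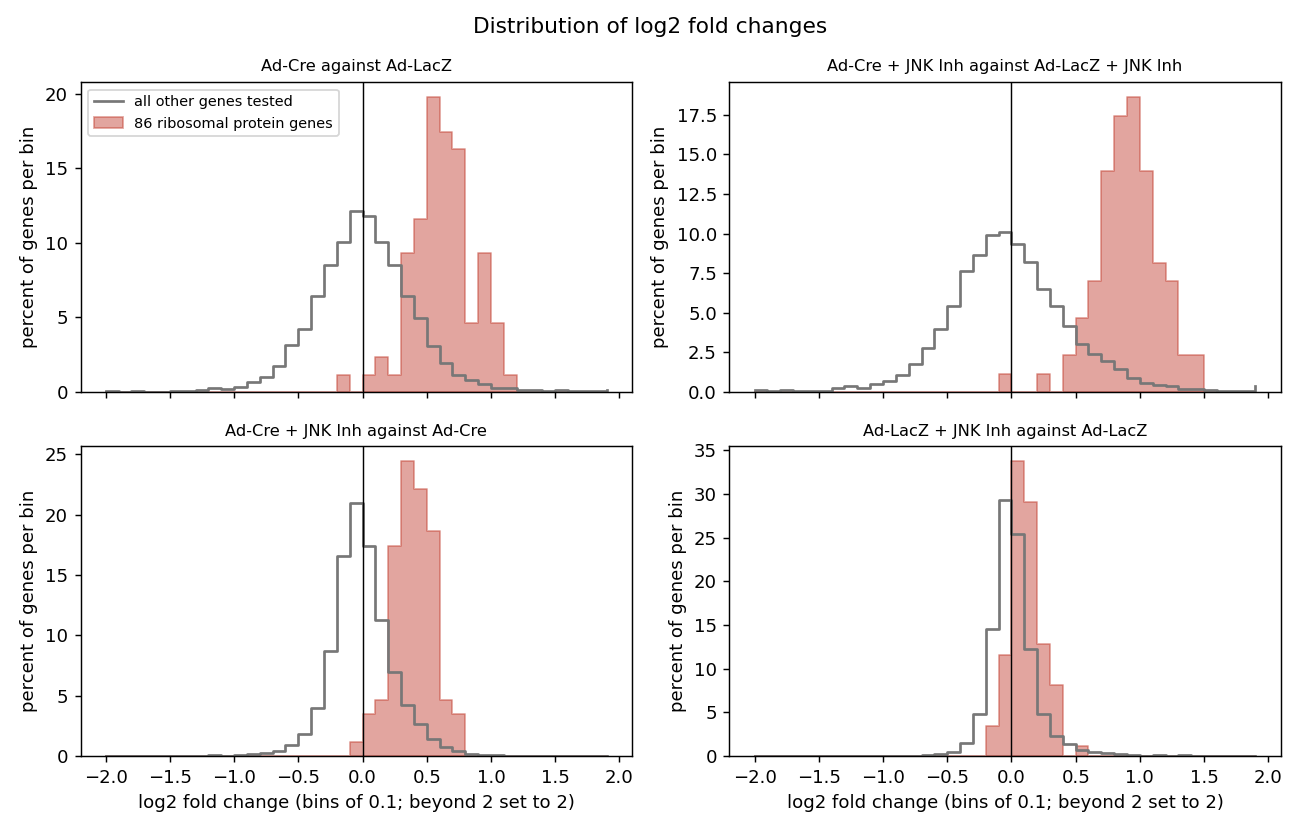
Share of genes per bin of 0.1 in log2 fold change, for the 86 ribosomal protein genes (filled) and all other genes tested (line), in the 4 comparisons. The members' medians are 0.62, 0.90, 0.40 and 0.10, and those of all genes lie between -0.03 and 0.01.

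With the inhibitor present, 67 of 86 members were higher in Ad-Cre than in Ad-LacZ and none was lower, against 11.7% of all 11598 genes called higher. At an unadjusted p under 0.05, 79 passed, none lower, against 17.8% of all genes higher, and with the block 69 were called, against 12.6%. The median log2 fold change was 0.90 (1.87-fold), the range was -0.01 to 1.43, and the median in each preparation was between 0.83 and 1.02. The groups did not overlap for 66 members, against 13.0% of all genes, and 75 passed the study's thresholds, against 9.79%. Without the 3 libraries that stood apart, 85 of 86 passed, at a median of 1.07 and against 20.3% of all genes. With the trends on GC content and length removed, 62 passed at a median of 0.71, against 12.2% of all genes. Without preparation M1 or F2, 22 and 19 passed, against 2.82% and 2.78% of all genes. Without F1 or M2, 68 passed each time, against 7.92% and 15.8%.

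The 3 stalk genes rose again. Rplp0 read 243, 319, 301 and 277 RPKM in F1, M1, M2 and F2 of Ad-LacZ + JNK Inh and 818, 675, 508 and 791 in Ad-Cre + JNK Inh (1.40 ± 0.18, adjusted p = 0.00140). Rplp1 read 422, 502, 466 and 476 and 1293, 962, 778 and 1302 (1.32 ± 0.20, adjusted p = 0.00246), and Rplp2 23.2, 29.7, 30.9 and 33.1 and 94.9, 64.9, 41.8 and 86.5 (1.35 ± 0.23, adjusted p = 0.00444). In all 3, the lowest Ad-Cre value was M2, a library that stood apart, and it still lay above the 4 Ad-LacZ libraries. Of the large subunit 32 of 42 genes rose, at a median of 0.87, of the small subunit 26 of 31, at 0.96, and of the paralogs and retrogenes 5 of 9, at 0.87. Rps27rt had the largest rise, from 211, 251, 310.2 and 316 to 933, 644, 397 and 795 RPKM (1.43 ± 0.25, adjusted p = 0.00506). Rps21, a small subunit protein, rose from 38.8, 62.8, 74.4 and 75.8 to 215, 146, 66.7 and 159 (1.27 ± 0.33, adjusted p = 0.0250), and its M2 value was the lowest of the 4 with Ad-Cre. Rps6 went from 199, 136, 119 and 121 to 228, 213, 277 and 220.2 (0.86 ± 0.24, adjusted p = 0.0302).

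Rpl13a did not pass here. It was 22.3, 49.3, 56.2 and 58.3 RPKM in Ad-LacZ + JNK Inh and 146, 119, 37.2 and 140.4 in Ad-Cre + JNK Inh (1.28 ± 0.43, adjusted p = 0.0630), and the value of 37.2 belongs to M2. Rpl38 was 147, 67.8, 57.1 and 64.5 and 137, 111, 176 and 118 (0.90 ± 0.34, adjusted p = 0.0893), and the value of 147 belongs to Ad-LacZ + JNK Inh F1. The smallest changes were those of Rps4l (-0.01), Rpl7l1 (0.26), Rpl5 (0.41) and Rpl24 (0.42), and none of the 4 passed (adjusted p from 0.0501 to 0.984), but Rpl24 did with the block (adjusted p = 0.0478). The unadjusted interval of Rps4l ran from -0.40 to 0.39. Rpl5 read 59.7, 35.7, 32.7 and 38.5 and 42.1, 42.9, 65.6 and 50.3, and the groups overlapped. Rpl11 rose from 15.5, 14.9, 10.3 and 13.6 to 19.8, 20.1, 19.3 and 24.2 (0.72). Rpl3 rose by 0.71, Rpl10 by 0.85, Rpl10a by 0.95, Rps19 by 0.90, Rps25 by 1.08, Rps26 by 0.96 and Rpsa by 0.84. Rpl23, Rps24 and Rps27a gave 0.62, 0.76 and 0.83 and did not pass.

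**Figure D5:**
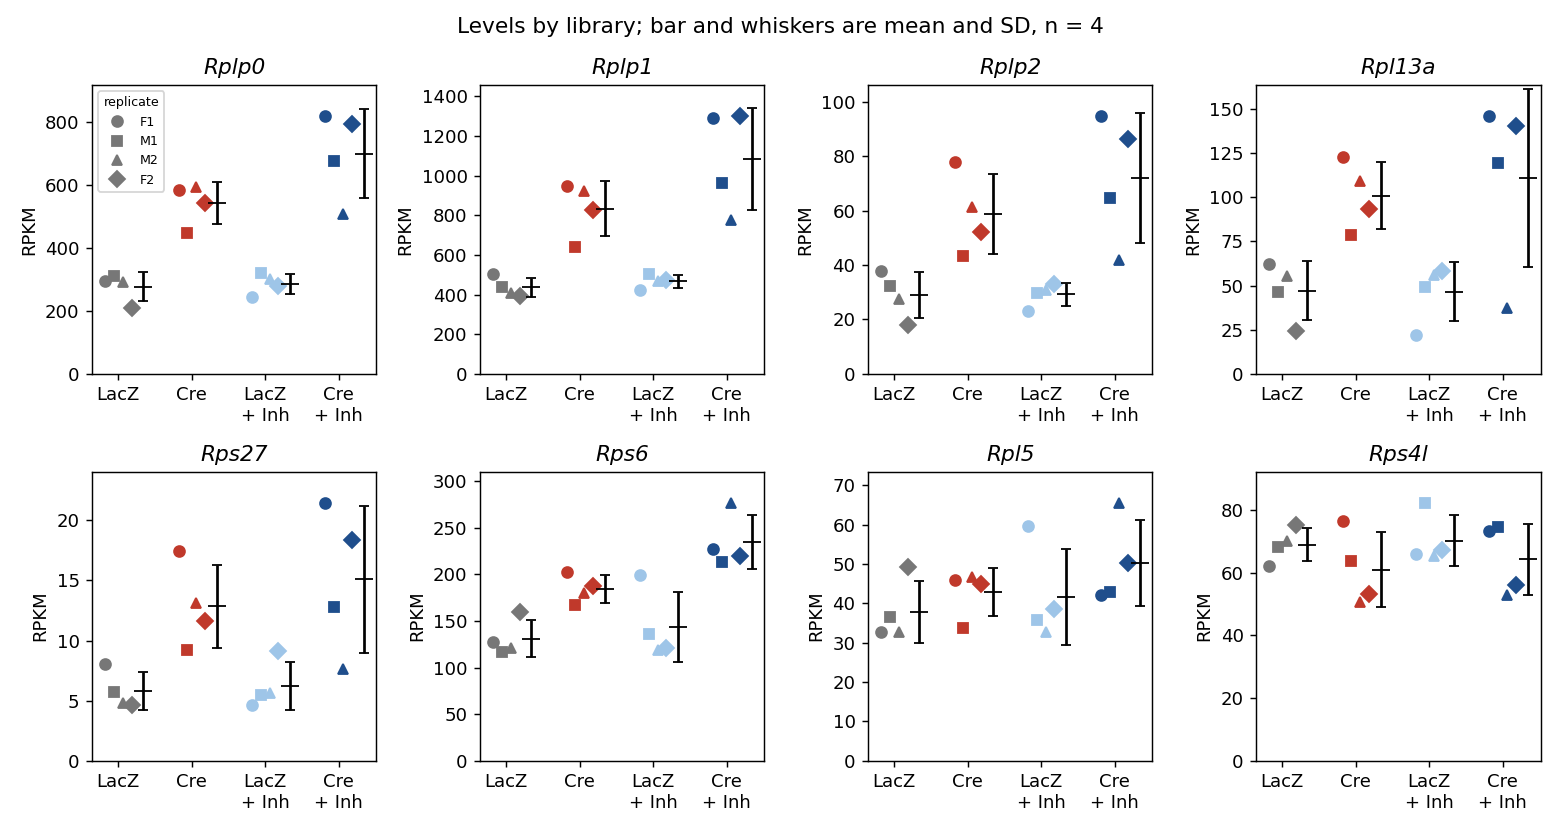
RPKM of 8 ribosomal protein genes in each library (symbols mark the preparation), with mean and SD of the 4 libraries of a group. For Rplp0, Rplp1, Rplp2 and Rps6 all Ad-Cre libraries lie above all Ad-LacZ libraries of the same treatment; Rpl5 and Rps4l overlap.

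Without the block, 53 of the 86 members were called in both virus comparisons, 14 with inhibitor alone, 6 without inhibitor alone (Rpl13, Rpl13a, Rpl30, Rps14, Rps2 and Rps27a) and 13 in neither. Of all genes tested, 8.98% were called higher without and 11.7% with the inhibitor. How all genes split over both comparisons was not counted, so this split of the members has no background beside it. Among the 14 were Rpl10, Rpl14, Rps26 and Rpsa, and among the 13 Rpl5, Rpl23, Rpl36a, Rpl38 and Rps24. These counts do not show that the virus acted differently under the inhibitor. The interaction of virus and inhibitor over all 16 libraries called none of the 86 members by limma, and 3 passed an unadjusted p under 0.05; of 12274 genes, 0.0163% were called higher and 1.98% were higher at the unadjusted p. The median interaction of the members was 0.32 on the log2 scale, with 84 of 86 above 0, and it was 0.48 without the 3 libraries that stood apart and 0.16 after quantile normalization.

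Among cultures labelled Ad-Cre, the inhibitor went with higher values of most members, but none of the 86 passed in limma after adjustment, and 0 of 11503 genes (0%) did. At an unadjusted p under 0.05, 46 members passed, none lower, against 6.15% of all genes, and all 46 were also above the study's fold change of 1.2, as were 5.86% of all genes. The median log2 fold change was 0.40, with 0.34, 0.58, 0.17 and 0.53 in F1, M1, M2 and F2, and 85 of 86 were above 0. With the preparations paired as a replicate block, 27 members were called, all higher, against 3.96% of all genes. The groups did not overlap for 21 members, against 3.92% of all genes. The 76 respiratory chain subunits tested had a median of 0.32 here. Of these, 74 were above 0, and 18 were called higher and 1 lower with the block. The 76 mitochondrial ribosomal proteins had a median of 0.11, and 1 was called higher with the block. Other genes above 200 RPKM (134 of them) had a median of 0.34, against 0.41 for the 10 members at that level. The differences between these sets and the members were not tested. These libraries labelled Ad-Cre also serve in the comparison with Ad-LacZ. Rpl38 had the largest difference, with 111, 67.9, 83.5 and 82.2 RPKM in Ad-Cre and 137, 111, 176 and 118 in Ad-Cre + JNK Inh (0.79 ± 0.21, adjusted p = 0.254; 0.0363 with the block). Rpl41, the smallest ribosomal protein, was 599, 474, 480.5 and 489 and 871, 738, 656 and 684, and Rpl14 was 116, 81.3, 107 and 106 and 141, 127, 209 and 160.1; for both, every library with the inhibitor was above every library without it. Rpl35, Rpl14 and Rpl41, all of the large subunit, gave 0.78, 0.76 and 0.67, with adjusted p of 0.0187, 0.0320 and 0.0180 in the block. Rpl36a gave 0.69 and passed in neither. At the other end, Rpl30, Rps14, Rpl7l1, Rpl3 and Rps19 lay between -0.0044 and 0.11. Values as deposited, without the scaling between libraries, gave a median of 0.25 for members and -0.14 for all genes. There the members stood above all genes by nearly the same amount, 0.39 against 0.42. The amount was smaller under other processing. After quantile normalization the median of the members was 0.24, which was 0.25 above all genes. With the trends on GC content and length removed it was 0.30, which was 0.31 above all genes.

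Among cultures labelled Ad-LacZ, no member was called with the inhibitor in limma, 1 passed an unadjusted p under 0.05 (3.44% of all genes were higher at it), and 0.154% of 11657 genes were called higher. The median of the members was 0.10 (0.13 for the large subunit, 0.09 for the small subunit and 0.07 for the stalk), and 0.04 without the libraries that stood apart. That 1 member, Rpl12, was also past the study's thresholds (2.95% of all genes) and was the 1 whose groups did not overlap (2.31% of all genes). It read 5.78, 5.75, 6.05 and 5.76 RPKM in Ad-LacZ and 5.53, 8.31, 7.13 and 9.95 in Ad-LacZ + JNK Inh (0.34 ± 0.12, adjusted p = 0.586). As deposited, the F1 value with inhibitor lay below all 4 values without it; the groups did not overlap after scaling. Rpl28, Rps13 and Rpl31 gave 0.51, 0.35 and 0.33, and Rps23, Rpl32l, Rpl17, Rps21 and Rps27rt lay between -0.08 and -0.14.

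Ribosomal proteins that the symbol rule misses were read as well. Rack1, a scaffold on the head of the 40S subunit, was 34.0, 26.9, 33.3 and 23.1 RPKM in Ad-LacZ and 51.6, 41.1, 58.8 and 50.6 in Ad-Cre (0.78 ± 0.14, adjusted p = 0.00899). Fau, a ubiquitin-like fusion with S30, rose by 0.63. With the inhibitor, Rack1 and Fau rose by 0.91 and 0.94. Of 17 other TOP mRNAs, 6 rose and none fell (median 0.27, against 8.98% of all genes called higher), and 6 rose with the inhibitor (0.36, against 11.7%). Eef1b2, an exchange factor for the elongation factor eEF1A, rose by 0.97 ± 0.13 and 1.42 ± 0.14, and Eif3e gave -0.39 and -0.50 without passing. Members with a TOP start (15) and without (49 with an entry) had medians of 0.67 and 0.58, and of 1.04 and 0.88 with the inhibitor.

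Other lists of the pathway had smaller medians, and their counts stand against 8.98% of all genes called higher with Ad-Cre and 11.7% with the inhibitor (16.9% and 12.6% with the block). Counts of genes that fell, here and in the next paragraph, stand against 1196 of 11590 genes called lower with Ad-Cre. With the inhibitor, 1307 of 11598 were called lower (2040 and 1416 with the block). Of 21 ribosome assembly genes, 3 rose (5 with the block) and none fell (median 0.09); with the inhibitor 6 rose (0.15). The largest was the box C/D snoRNP protein Nop56, at 0.71 ± 0.11 and 1.24 ± 0.12, and the smallest Wdr12, at -0.23 and -0.22. Of 21 genes of mTORC1 and eIF2 control, 2 rose and 1 fell (median -0.04), and 3 rose and 1 fell with the inhibitor (-0.09). Ppp1r15a, which directs dephosphorylation of eIF2α, rose by 1.36 ± 0.16 and 1.89 ± 0.17, and Eif2ak3, the eIF2α kinase PERK, by 0.61 and 0.71. Of 12 ribosomal protein chaperones and ribosome rescue factors, 1 rose and 2 fell (4 and 3 with the block), and 3 rose and 1 fell with the inhibitor. Zfp598, the sensor of collided ribosomes, rose by 0.57 and 0.74, and Ascc3, which takes such ribosomes apart, fell by 0.66 and 0.78. Of the 4 genes of the p53 axis, Cdkn1a, a p53 target that halts the cell cycle, rose by 1.79 ± 0.19 and 1.89 ± 0.21 and Trp53 by 0.48 and 0.47 (the latter with an adjusted p of 0.0479, and 0.0664 with the block), while Mdm2 gave 0.05 and 0.11 and Mdm4 0.08 and -0.05. The study itself followed p53 in these samples, so this list is not independent.

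The 76 mitochondrial ribosomal proteins tested, which serve another ribosome, had a median of 0.13 (4 rose, 1 fell; 12 and 3 with the block) and 0.19 with the inhibitor (11 rose, 1 fell). The 76 respiratory chain subunits had 0.19 (4 rose, 2 fell; 19 and 4 with the block) and 0.44 (14 rose, 1 fell; 26 and 1 with the block). The difference between these lists and the cytosolic ribosomal proteins was not tested. Of the 20 pseudogene rows tested, 11 rose (17 with the block) and none fell, at a median of 0.67, and 18 of 22 rose with the inhibitor (0.98). With these rows added to the gene they are named after, 59 and 69 of the 86 members were called in the virus comparisons. All genes called higher were 8.91% and 11.6% there.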

How the data were processed

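RNA-seq (polyA-selected, paired-end, 150-base reads) covered 16 libraries, 4 in each of 4 groups, assigned by their labels. The values the authors deposited are RPKM per gene. Reads were aligned with STAR, per the methods of the study, and the submitters' processing notes name GRCm38; the gene annotation and the step from counts to RPKM are not given in the sources used here. The table has 19 columns of values, of which 3 match no sample and were not used. Depth was estimated from the steps of low values and the exon lengths of GENCODE vM21: 7.71 to 25.4 M (mega) reads, with 92.9 to 94.3% of values below 20 reads within 0.05 of a whole number, so the estimate gives counting precision only and no count test was run.

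RPKM values were scaled by trimmed mean factors (own code without weights, trimming 30% of ratios and 5% of levels), 1 RPKM was added and log2 was taken. Fold changes are on this scale, which understates changes of low genes. A gene entered a test where 4 or more of its libraries exceeded 1 RPKM. Tests were run in R 4.3.3 with limma 3.58.1 (lmFit, eBayes with trend) on the 8 libraries of the pair of groups, or on all 16 for the interaction, with Benjamini-Hochberg adjustment over all genes and a threshold of 0.05. A second rule took the fold changes of the study (1.5 for virus, 1.2 for inhibitor) at an unadjusted p under 0.05. The script was tested on simulated data. With 4 preparations a group, p-values measure the spread between these samples, part of which may be technical. No pair of libraries was identical (highest correlation 0.996).

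Libraries with one preparation name come from parallel cultures, per the methods of the study. Residuals of same-named libraries correlated at 0.484 to 0.716 (Ad-Cre against Ad-LacZ), 0.154 to 0.657 (the same with inhibitor), 0.641 to 0.819 (inhibitor in Ad-Cre) and 0.126 to 0.824 (inhibitor in Ad-LacZ), and other pairs had negative means. The numbers therefore pair the libraries, and a fit with the preparation as a replicate block is cited beside a result whose call it alters.

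The members and lists were chosen with earlier results of these data known. Genes are named by a rule: a set of ribosomal proteins with known extra roles, paralog pairs, the stalk, and the 5 largest and 5 smallest changes in each comparison. The gene pairs that set libraries apart and the genes shown for their pseudogene rows were chosen after their values were seen. Alternatives were a pseudocount of 0.1, no filter, RPKM as deposited, quantile normalization, scaling without ribosomal rows, the block, all 16 libraries in 1 fit and each replicate left out; chosen after seeing the data were leaving out 3 libraries or Ad-Cre + JNK Inh F2, adding pseudogene rows, and removing GC and length trends. Start sequences are from RefSeq (GRCm38.p6). A few genes that the naming rule picks are not reported here.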

Additional observations from a re-analysis of the deposited data

Results flagged for a closer look

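In 14 of 180 groups of 4 libraries, over 45 named genes, 1 library lay far from the other 3 by Dixon's 95% criterion, which chance alone meets in about 1 group in 20. In Ad-LacZ, F2 was high for Rpl23 (87.3 RPKM against 52.9 to 54.0 in the others), Rpl22 (36.1 against 28.2 to 28.8) and Rpl36a (25.2 against 11.7 to 13.3), and M2 for Rpl12 (6.05 against 5.75 to 5.78). In Ad-LacZ + JNK Inh, F1 was high for Rpl38 (146.5 RPKM against 57.1 to 67.8), Rpl14 (119 against 64.6 to 72.7), Rpl10 (109 against 69.6 to 72.1), Rpl35 (55.5 against 35.6 to 37.8) and Rpl36a (35.0 against 12.4 to 16.2), and M1 for Rps4l (82.5 against 65.5 to 67.4). In Ad-Cre, F1 was high for Rpl41 (599 RPKM against 474 to 489) and Rpl36al (170.3 against 118 to 127), and M1 was low for Rpl5 (33.8 against 44.9 to 46.8). In Ad-Cre + JNK Inh, F1 was high for Rpsa (217 RPKM against 164 to 166). Of the 14, 8 came from Ad-LacZ F2 or Ad-LacZ + JNK Inh F1, which also stood apart in the balance among members, and what sets them apart was not tested.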

How the results depend on the processing

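The count of members higher with Ad-Cre (59, against 8.98% of all genes) was 23 without a filter on low values (3.17%). It was 38 with GC and length trends removed (6.67%) and 5 to 23 with 1 preparation left out (1.84% to 4.92%). The median stayed within the spread of the replicates under every alternative run, and no member was called lower. By the thresholds of the study, 46 became 30 with the trends removed, with or without the replicate block. With the inhibitor, 19 to 68 members were called with 1 preparation left out, against 2.78% to 15.8% of all genes. The median of 0.90 was 0.78 as deposited, 0.71 after quantile normalization, 0.71 with the trends removed (with or without the block) and 1.07 without the 3 libraries. As deposited, the median of all genes moved from -0.03 to -0.14 there and from -0.02 to -0.14 for the inhibitor in Ad-Cre, and the split of all calls in the former from 1359 higher and 1307 lower to 950 and 2106. For the inhibitor in Ad-Cre, 27 members were called with the block that pairs preparations and 17 with block and trends removed. All genes called higher were 3.96% and 4.94% there. By the thresholds of the study, 46 became 18 as deposited, 17 after quantile normalization, 30 with the trends removed and 15 to 50 with 1 preparation left out. In Ad-LacZ, 1 became 2 as deposited, 4 with the block, 5 without the libraries that stood apart, 3 with block and trends removed, and 0 to 5 with 1 preparation left out. With the trends removed, the block raised the count for Ad-Cre from 38 to 60, and the share of all genes from 6.67% to 14.3%. The cause of these changes was not tested, except that leaving out a preparation leaves 3 libraries a group.

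Among the values of single named genes under alternatives, 1073 kept their sign and side of the threshold, 36 changed sign, 140 lost and 54 gained the threshold. By gene, 6 of 31 kept both under every alternative for Ad-Cre, and 3 of 33 with the inhibitor. For Ad-Cre, Rpl11 and Rps6 lost the threshold whichever preparation was left out, and Rplp2 lost it without M1, M2 or F2. There, 3 libraries a group remained. For Ad-Cre, Rpl36al was -0.11 after quantile normalization, -0.00808 with the trends removed (also with the block) and -0.11 to 0.31 with 1 preparation left out. With the inhibitor, Rps4l was 0.0059 with scaling without ribosomal rows and 0.0058 in 1 fit of all libraries, 0.12 without the 3 libraries, and -0.0532 to 0.079 with preparations or Ad-Cre + JNK Inh F2 left out. For the inhibitor in Ad-Cre, values as deposited gave Rps14 -0.13, Rpl7l1 -0.070, Rpl3 -0.046 and Rps19 -0.031; quantile normalization gave Rps14 -0.27, Rpl7l1 -0.035, Rpl3 -0.11 and Rpl30 0.049; the trends removed gave Rps14 -0.10 and Rpl3 -0.00870 (also with the block). Rpl30 was 0.011 without a filter, 0.0012 in 1 fit and 0.25 without the 3 libraries. With preparations left out, Rpl30 ran from -0.24 to 0.29, Rps14 from -0.15 to 0.38 and Rps19 from -0.026 to 0.38. For the inhibitor in Ad-LacZ, added pseudogene rows gave Rps13 -0.067 and Rpl17 0.034, and leaving preparations out gave Rps27rt -0.29 to 0.028, Rps21 -0.28 to 0.19 and Rpl17 -0.22 to 0.015.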

Other observations

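Rpl3l, the paralog of Rpl3 found in heart and skeletal muscle, was below the level needed for a test but was listed at 0 in all 4 Ad-LacZ libraries. It read 0, 0.0511, 0.380 and 0.233 RPKM in F1, M1, M2 and F2 of Ad-Cre, 0, 0.0268, 0.132 and 0.0478 in Ad-LacZ + JNK Inh, and between 0.0879 and 0.788 in Ad-Cre + JNK Inh. Rpl3 itself was present in every library. The interaction of virus and inhibitor passed an unadjusted p under 0.05 for Rpl17 (0.35 on the log2 scale), Rpl27a (0.54) and Rps3a1 (0.38), and none of the 3 passed after adjustment in limma.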
